A study of Homo sapiens with 40 samples.

Results

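The measurement described here is the change in polysome loading with interleukin-13 (IL-13), averaged over 2 lines of BEAS-2B cells, an immortalised human lung epithelial line. It drew on 40 of the 40 libraries of the series. For each gene the shift was the log2 ratio of polysome to input RNA with IL-13 minus the same log2 ratio without it, from 10 libraries per fraction and treatment. A positive shift means that IL-13 raised the RNA on polysomes by more than it raised the RNA in input. A shift of 0 means that both moved by the same factor. Each effect is relative to the other RNAs of the same libraries.

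One line carried a control short hairpin RNA constitutively. The other carried a hairpin directed at the RNA-binding protein IGF2BP3. There was 1 line per hairpin, so the hairpin and any other difference between the lines cannot be told apart. All cells were grown in RPMI with 10% serum and starved overnight in medium with 2% serum. Cells then received 100 ng/ml of IL-13 or no stimulus, and were harvested 24 h later. Frac-seq sequenced total RNA (input) and polyribosome-bound RNA (polysome) after poly(A) selection, with 5 libraries for each of the 8 combinations of fraction, treatment and line. The sample names carry an siRNA-like prefix, and the description of constitutive hairpin lines in the growth protocol was used instead. The labels do not say whether the 5 replicates were separate cultures, so p-values measure the spread between these libraries, which may be technical.

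Polysomes are mRNAs that carry several ribosomes, and RNA found there is commonly read as being translated. An mRNA can gain protein output through more RNA, through denser loading of that RNA, or through both. The shift measures the loading part alone, relative to the other RNAs. Each library was scaled to its own total, so a rise or fall of loading shared by all mRNAs would not show. IL-13 is a type 2 cytokine of allergic airway disease. It binds a receptor formed by IL4R and IL13RA1, whose kinases JAK1 and TYK2 activate the transcription factor STAT6. CISH and SOCS1, induced inhibitors of this pathway, feed back on it.

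Library totals ran from 1816848 to 40441061 estimated counts, and 3 polysome libraries of the knockdown line held fewer than 5000000. Depth moved with treatment in polysome RNA, with a median of 14681383 without IL-13 and 28460348 with it, while the input medians were 26548283.5 and 25969618. The part of this depth difference in the shifts was not tested. IGF2BP3 itself measured 20.7 to 48.8 CPM (counts scaled to the library's total) in control input and 17.7 to 35.1 CPM in knockdown input, so single libraries of the lines overlapped in it. The lines are therefore named by their labels. Of 20 airway epithelial markers 16 passed the filter on low counts, led by KRT8 at 746 to 2310 CPM in input. There KRT5, EPCAM, CDH1 and TP63 had medians between 0 and 0.599 CPM. The filter thus kept scarce markers, among them KRT5, EPCAM and CDH1. Of 17 immune markers 4 passed the filter on low counts. PTPRC and MS4A1 were at 0 in all 20 input libraries, while CD14 measured 10.2 to 30.6 CPM there and CD68 had a mean of 14.7 CPM over all libraries. The summed level of the list in input was 17.2 to 46.9 CPM without IL-13 and 22.3 to 41.3 CPM with it.

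No gene changed its relative polysome loading with IL-13 past the threshold. Of 16735 genes tested with edgeR's quasi-likelihood test, 0 were called higher and 0 lower at an adjusted p under 0.05, and the smallest adjusted p was 1. At an unadjusted p under 0.05 there were 274 genes (1.64%), 140 higher and 134 lower, where chance gives 837. DESeq2's Wald test called 13 genes and had 269 at an unadjusted p under 0.05. Within the control line edgeR called 0 genes (326, or 1.95%, unadjusted), within the knockdown line 0 (219, or 1.31%), and for the difference between the lines 0 (284, or 1.7%).

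The absence of calls has to be read against the precision. In the quintile of genes with the highest levels (median 133 CPM) the median standard error of a shift was 0.21 on the log2 scale, and in the lowest quintile (median 0.343 CPM) it was 0.98. The median size of a shift was below the median standard error in each of the 5 quintiles. An unadjusted p under 0.05 was found for 193 of 3347 genes in the lowest quintile and for 2 of 3347 in the highest. In the highest quintile this was far below the chance rate for independent genes, but genes are not independent. The test may have been conservative there, with standard errors and intervals of well expressed genes too wide. Neither this nor a reason for it was tested. Over all genes the median shift was -0.019, with 8940 genes below 0 (53.4%), and the interquartile range was -0.17 to 0.14. Among the 8920 genes of at least 10 CPM the median was -0.026 and 5077 were below 0. Across genes, which are not independent replicates, the shift in the control line and the shift in the knockdown line had a Pearson r of 0.027 and a Spearman rho of 0.046. For the 8920 genes of at least 10 CPM these were 0.045 and 0.16, against 0.33 and 0.30 for the effect of IL-13 on input RNA. The 2 lines share no library.

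**Figure D1:**
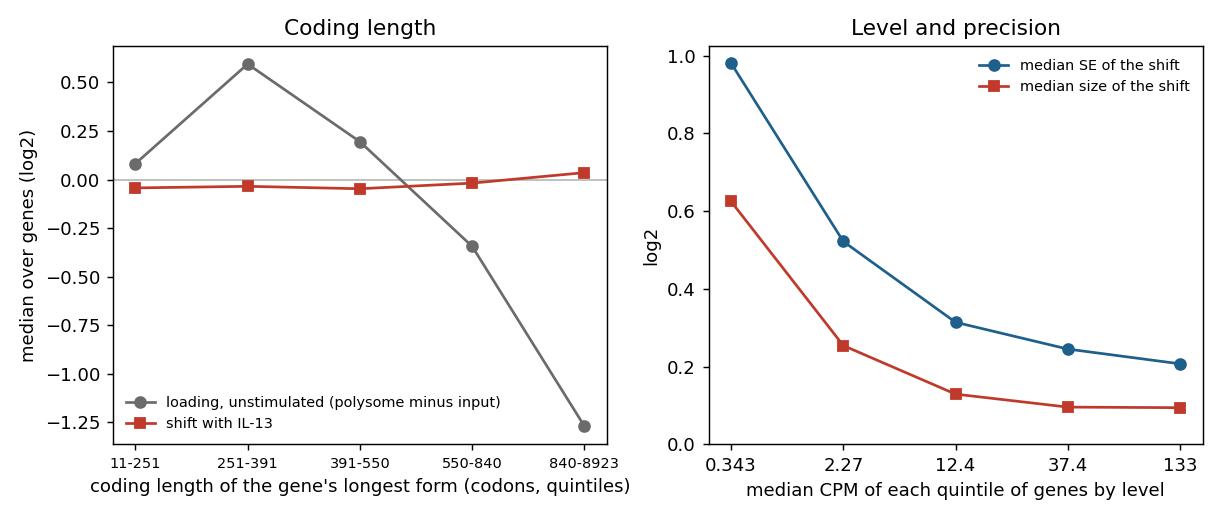
Left, medians over genes in quintiles of coding length (x axis, codons) of the log2 polysome loading without IL-13 (grey circles) and of the log2 shift with IL-13 (red squares). Loading ran from 0.60 in the second quintile to -1.27 in the longest, and the shift stayed between -0.047 and 0.036. Right, median standard error (blue circles) and median size (red squares) of the shift in quintiles of genes by level (x axis, median CPM); the error exceeds the size in each quintile.

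For most genes called for IL-13 in both fractions, the confidence interval of the shift included 0. In input 25 genes were called (0.149% of those tested), all higher, and in polysome RNA 35 were called, 30 higher (0.179%) and 5 lower (0.0299%). Called in both fractions were 21 genes, all higher, and none of the 21 was called for the shift. For 20 of these genes the values are given here. Their shifts ran from -1.51 to 0.64, with 15 above 0 and 5 below, and a median of 0.098. HSD3B1 held at most 3 counts in every unstimulated library of at least 1 fraction, and without it the median was 0.066 with 14 of 19 above 0. The 95% confidence interval of the shift included 0 for 19 of the 20 genes, and for 10 it lay wholly within 1 log2 unit of 0, that is, within a factor of 2 either way. The choice of these genes used both effects that make up the shift and favours genes with like effects. The counts are therefore a description.

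**Figure D2:**
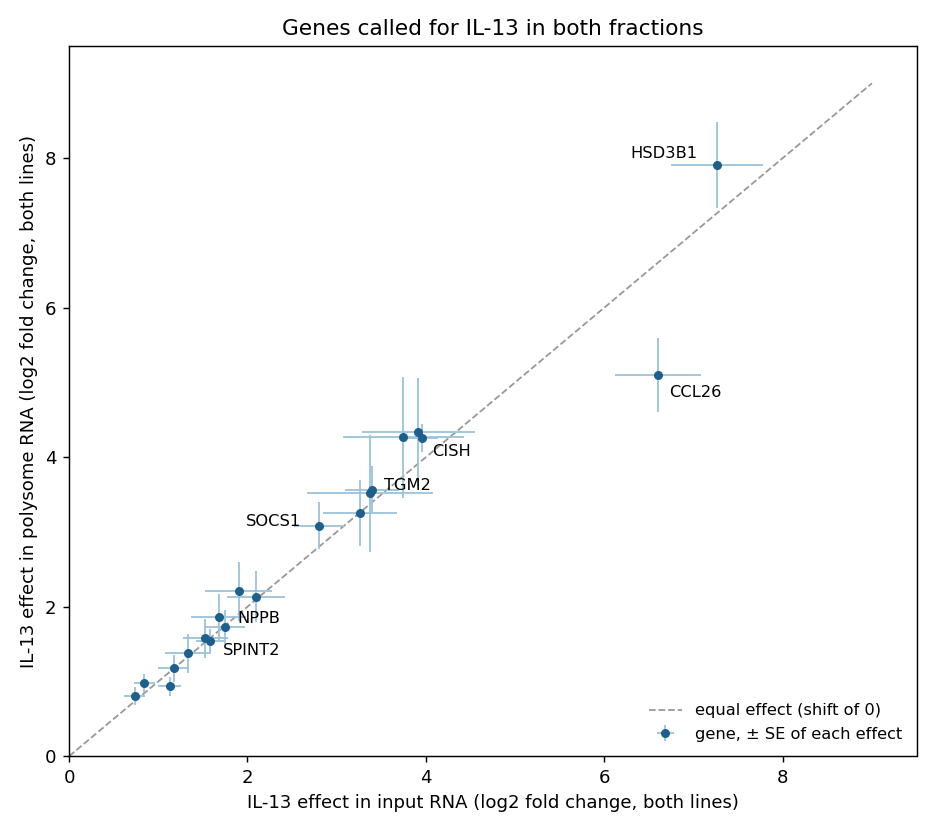
Effect of IL-13 on 20 of the 21 genes called in both fractions, as log2 fold changes in input (x axis) and polysome RNA (y axis), averaged over both lines, each ± its standard error. The dashed line marks equal effects; most genes lie close to it, and CCL26 lies below it (6.60 and 5.09).

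The 2 feedback inhibitors lay on either side of the loading scale. CISH measured 1.41, 2.04 and 2.82 CPM (lowest, median and highest of 10 libraries) in unstimulated input and 24.0, 28.8 and 45.5 CPM with IL-13. On polysomes it measured 1.25, 3.10 and 5.37 CPM without IL-13 and 41.1, 51.7 and 80.6 CPM with it. The treatments did not overlap in either fraction, and with IL-13 the RNA was higher in CPM on polysomes than in input (log2 0.84, edgeR adjusted p = 2.28e-05), as were 21.4% of all genes tested. CISH rose by 3.95 in input and 4.25 on polysomes, a shift of 0.30 ± 0.24 (SE) with a 95% interval from -0.18 to 0.78. Without IL-13 the log2 ratio of polysome to input, each as CPM + 1 and matched by number, was -0.50, 0.50 and 1.27, and with IL-13 it was 0.17, 0.66 and 1.37, so 8 of the 10 treated ratios fell inside the untreated range. The labels do not say that input and polysome libraries of the same number came from the same culture, and their deviations from the group means had correlations from -0.49 to 0.62 (median 0.015 over 20 such pairs). Ratios by numbered pair therefore depend on the matching and are descriptions only, and no test here uses them.

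SOCS1, the other inhibitor, was poorly loaded before and after. It rose from 1.08, 1.38 and 2.64 CPM to 7.65, 8.78 and 19.4 CPM in input, and from 0, 0.339 and 0.766 CPM to 0.867, 3.25 and 7.27 CPM on polysomes. With IL-13 its RNA was lower on polysomes than in input by a log2 value of -1.45 (edgeR adjusted p = 1.51e-05), as were 31.9% of all genes tested. Its shift was 0.29 ± 0.39 (SE), with an interval from -0.51 to 1.08. TGM2, a protein cross-linking transglutaminase, and LIMA1, an actin-binding protein, were also lower on polysomes than in input with IL-13, by -1.56 and -1.58. The LIMA1 shift was 0.00 ± 0.24, with both lines near 0 (0.020 and -0.017), and it moved to -0.24 without replicate 4. The TGM2 shift, 0.15 ± 0.96, was too imprecise to place, and its input values with IL-13 alone ran from 9.29 to 239 CPM.

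SPINT2, an inhibitor of serine proteases at the epithelial surface, was the opposite case of a well loaded mRNA. It rose from 48.7, 67.9 and 97.7 CPM to 159, 197 and 291 CPM in input and from 111, 155 and 206 CPM to 304, 427 and 713 CPM on polysomes. Its treatments did not overlap in either fraction, and its polysome over input ratios, 0.32, 1.20 and 1.79 without IL-13 and 0.26, 0.99 and 2.03 with it, did. The shift was -0.033 ± 0.22 (SE; interval from -0.47 to 0.41), almost equal in the control line (-0.033) and the knockdown line (-0.032). CCDC86, a nucleolar protein gene, rose by 1.13 in input and 0.93 on polysomes, and its shift of -0.19 ± 0.18 had an interval from -0.57 to 0.18. RNF19B, a ubiquitin ligase gene, rose by 0.74 and 0.80, and NABP1, a single-stranded DNA-binding protein gene, by 0.85 and 0.97. Their shifts were 0.066 ± 0.17 and 0.13 ± 0.17. NPPB, the natriuretic peptide precursor, rose by 1.75 and 1.73 (shift -0.016 ± 0.31).

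CCL26, the eosinophil attractant eotaxin-3, had the lowest shift of the 20. It measured 0, 0.132 and 0.297 CPM in unstimulated input and 10.2, 13.7 and 16.1 CPM with IL-13. On polysomes it measured 0, 0.0735 and 0.978 CPM and then 1.73, 6.86 and 11.7 CPM. Treated libraries lay above untreated ones in both fractions, and with IL-13 CCL26 was lower on polysomes than in input (log2 -0.87, edgeR adjusted p = 0.0391). The shift was -1.51 ± 0.70 (SE), with an unadjusted p of 0.0387 that did not pass after adjustment by edgeR over all genes. It rested on unstimulated libraries that held few CCL26 counts, and without replicate 5 it was 0.047.

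HSD3B1, a steroid dehydrogenase, had the highest shift of the 20. It measured 0, 0 and 0.0925 CPM in unstimulated input and 0, 0 and 0.225 CPM on unstimulated polysomes. With IL-13 it reached 1.44, 4.87 and 8.06 CPM in input and 5.00, 8.56 and 15.5 CPM on polysomes. With IL-13 it was higher on polysomes than in input by 0.96 (edgeR adjusted p = 0.0191), although the libraries of the fractions overlapped. The fitted shift of 0.64 ± 1.06 (SE) compares these with unstimulated libraries at or near 0 and depends on the small count the model adds.

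**Figure D3:**
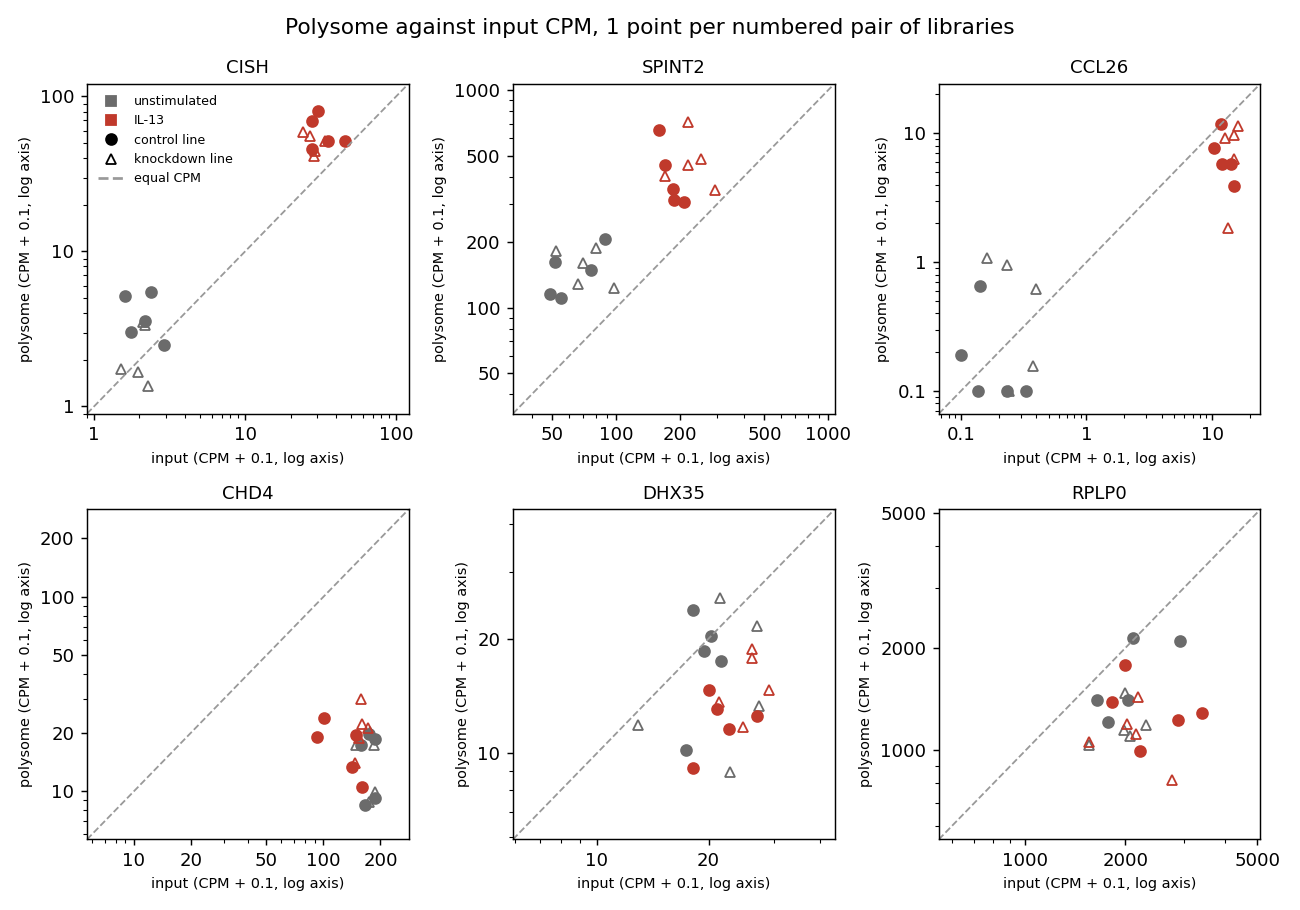
Polysome (y axis) against input (x axis) CPM + 0.1 on log axes for 6 genes, 1 point per pair of libraries with the same line, treatment and number; grey is unstimulated, red is IL-13, filled circles the control line and open triangles the knockdown line. CISH, SPINT2 and CCL26 move up and to the right with IL-13, while for CHD4, DHX35 and RPLP0 the colours overlap.

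A call in 1 fraction alone is not a test of the shift, and none of these genes was called for it. In input alone these were SERPINB6, GSTK1, ALOX15 and SERPINB4. SERPINB6, a protease inhibitor, rose by 0.51 in input and measured 0.36 on polysomes (edgeR adjusted p = 0.293), a shift of -0.14 ± 0.15. GSTK1, a glutathione transferase, gave 0.58 and 0.44, a shift of -0.14 ± 0.17. SERPINB3 and SERPINB4 are near-identical copies whose reads the counting could split, and both were scarce (means of 0.209 and 0.332 CPM). The 14 genes called in polysome RNA alone fell into 8 with a shift at an unadjusted p under 0.05 and 6 without. The 8 had shifts of 2.48 or more in size, 4 higher and 4 lower, and means of 0.209 to 9.23 CPM. ARHGAP44 measured -0.30 in input and 4.28 on polysomes (shift 4.58 ± 1.12, unadjusted p = 0.000256). TUBA8, a tubulin gene, measured -0.026 and -3.17 (shift -3.14 ± 0.83). The others of the 8 were ENSG00000285943 (shift 5.67), PCSK6 (2.98), SERPINB3 (2.48), CD101 (-3.73), TNS1 (-3.89) and ENSG00000254692 (-5.67). The other 6 had shifts from -0.18 to 0.45 and means of 6.68 to 123 CPM, a range that overlaps that of the 8. Of these TEX2 measured 0.48 in input and 0.67 on polysomes (shift 0.19 ± 0.16) and JCAD, a cell junction gene, 0.72 and 0.88 (shift 0.16 ± 0.24).

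A check without shared libraries took the IL-13 genes from one line and read them in the other. The 13 genes called in control input had, in the knockdown line, a median effect of 3.31 in input and 3.16 on polysomes and a median shift of -0.032, with 5 above 0 and 8 below. The median over all genes there was -0.023. The 14 genes called in knockdown input had, in the control line, medians of 2.38 and 2.54 and a median shift of -0.0042, with 7 above 0 and 7 below, beside -0.0095 over all genes. In both directions the median shift of these genes was close to that of all genes, although their RNA had risen several-fold.

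No receptor or signalling gene of IL-13 was called for the shift. Of 27 listed genes 25 were tested, 0 were called in either direction (0% of all genes tested), and 8 lay below 0 against 53.4% of all genes. The list's median was 0.10, beside -0.019 over all genes, but the lines did not share this sign. The median was -0.011 in control (13 of 25 below 0) and 0.074 in knockdown (11 of 25). IL4R, the shared receptor chain, had a shift of 0.0070 ± 0.32 and IL13RA1, its partner, 0.16 ± 0.26. Among the kinases JAK1 had 0.10 ± 0.36 and TYK2 0.019 ± 0.23, and STAT6 had -0.11 ± 0.22. STAT6 measured 86.2, 92.3 and 115 CPM in unstimulated input and 80.9, 95.9 and 133 CPM with IL-13, and 39.6, 58.0 and 108 CPM against 41.7, 64.2 and 88.4 CPM on polysomes, with overlap in both fractions. IRS2, an insulin receptor substrate that this receptor also uses, had 0.40 ± 0.35. In 54 of 56 settings the list's median was above 0, and the lowest was -0.013. Without replicate 5 it was -0.0023. The IL-13 pair of control libraries numbered 1 stood below the others, at -0.89 relative to all genes against -0.33 for the next.

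Among the 28 tested genes of a list of 47 IL-13-induced genes, 10 lay below 0 (53.4% of all genes did). The median was 0.065, or 0.046 without the 4 at or near 0 in unstimulated cells. Within each line 15 of 28 lay below 0, and the medians there were -0.026 in control and -0.011 in knockdown, the other sign from the averaged value. In this list 20 genes were called higher in input (0.149% of all genes were) and 19 on polysomes (0.179%). The list holds genes that earlier results of these data had shown to rise, so these calls are not independent evidence. Its median was -0.018 without replicate 2 and -0.15 with limma voom. CD274, the checkpoint ligand PD-L1, had a shift of -0.37 ± 0.55, and PDCD1LG2, its relative, 0.063 ± 0.35. SOCS3, another inhibitor, was not called for IL-13 and had a shift of 0.18 ± 0.27.

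Cytosolic ribosomal protein genes were the list with the most uniform direction. All 80 tested lay below 0, against 53.4% of all genes, with a median of -0.18, a highest value of -0.030 (RPL36AL) and a lowest of -0.36 (RPLP0). In the control line 75 lay below 0 (51.3% of all genes did) with a median of -0.18, and in the knockdown line 74 (53.9%) with a median of -0.14. None of the 80 was called, and none had an unadjusted p under 0.05. The RNA of these genes moves together, so 80 genes are far from 80 separate observations, and their reads can be shared with processed pseudogenes. Input medians (0.056) and polysome medians (-0.11) of their IL-13 effects lay on either side of 0.

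The list's ratios in numbered pairs overlapped between the treatments. Relative to the median of all genes, the list's log2 polysome over input was -0.63, -0.075 and 0.21 (lowest, median and highest of 10 pairs) without IL-13 and -0.68, -0.39 and 0.40 with it. With this matching 1 treated pair lay below all untreated pairs and 1 above. Over 56 settings the median stayed below 0, from -0.23 to -0.055, and the value nearest 0 came without replicate 5. Highly expressed genes also lay mostly below 0, and in the highest quintile by level 64.7% lay below 0 with a median of -0.052. RPLP0, a protein of the ribosomal stalk, measured 1555, 2022 and 2917 CPM in unstimulated input and 1559, 2170 and 3409 CPM with IL-13. On polysomes it measured 1039, 1311 and 2139 CPM and then 821.5, 1215 and 1784 CPM. Both fractions overlapped, and its shift was -0.36 ± 0.19 (interval from -0.75 to 0.023).

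**Figure D4:**
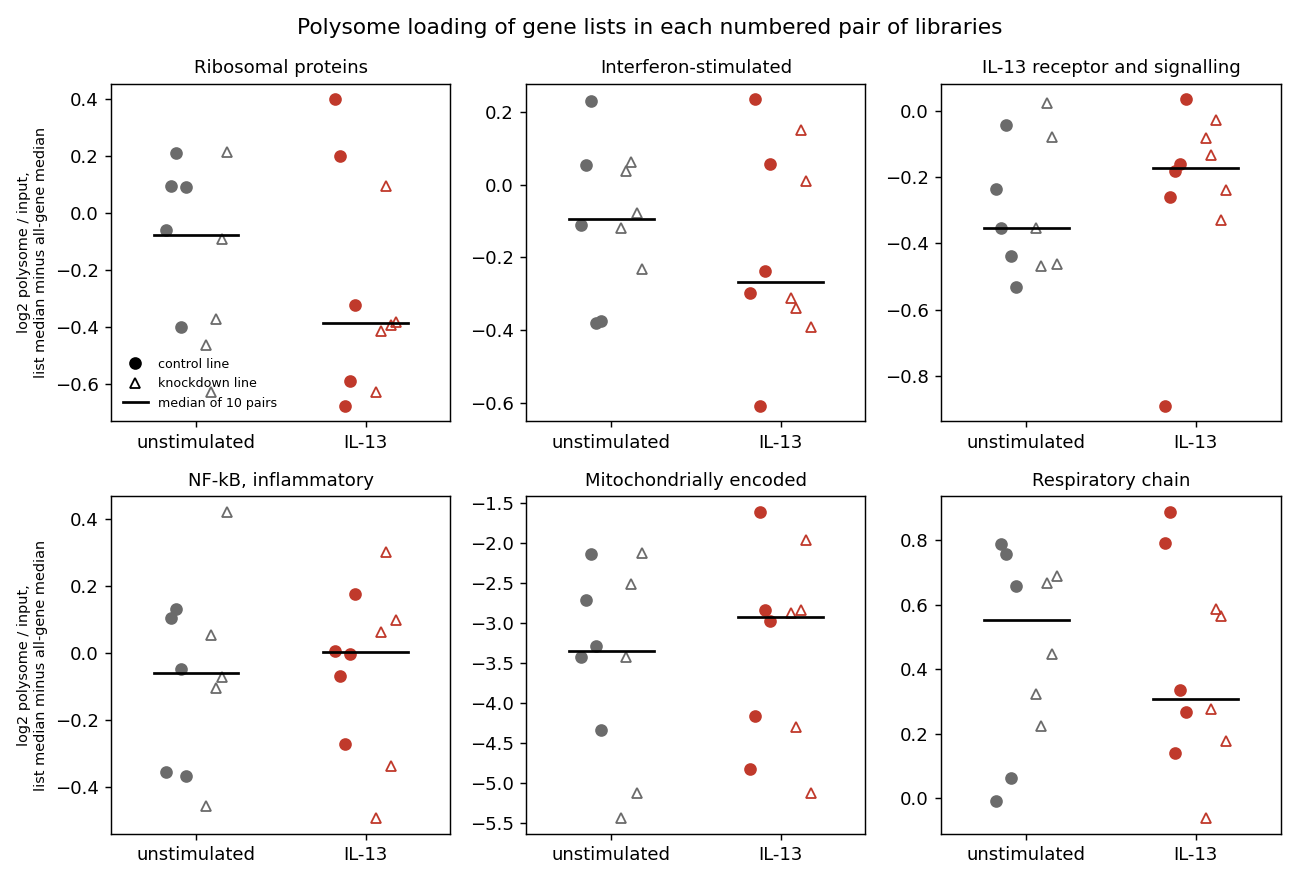
Log2 polysome over input of 6 gene lists (y axis, median of the list minus median of all genes) in each numbered pair of libraries, without (grey) and with (red) IL-13; filled circles are control, open triangles knockdown, and the bar is the median of 10 pairs. In each of the 6 panels the treatments overlap; the ribosomal protein medians are -0.075 and -0.39.

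Ribosomal protein mRNAs are known for a 5' terminal oligopyrimidine (TOP) start, a C followed by a run of C and T, through which mTOR signalling controls their translation. Start sites were read from RefSeq promoter windows (GRCh38.p14), and a TOP start was taken as a C at the annotated start followed by at least 4 bases that are each C or T, on the gene's own strand. Of the 80 genes 64 had a window and 47 of these (73.4%) held such a start, against 4.07% of 35116 windows and 7.23% of 11523 tested genes with a window. The sequences below show 10 bases before and 20 from the start, 5' to 3'. They are from 4 TOP genes of low shift, from RPL36AL and from the elongation factor gene EEF1A1. The 4 had the lowest shifts among the genes with a TOP start in the windows searched for this display, which left out a chromosome. RPL36AL was taken because it had the highest shift of the 80 genes, so the display sets extremes side by side. Capitals mark the C and the pyrimidines that follow it.
RPLP0, chr12:120201092-120201121, minus strand: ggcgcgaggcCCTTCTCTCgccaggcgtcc
RPL39, chrX:119791611-119791640, minus strand: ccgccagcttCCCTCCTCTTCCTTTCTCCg
RPLP1, chr15:69452808-69452837, plus strand: ggcgcgagagCCCCTTTCCTCagctgccgc
RPL10, chrX:154398367-154398396, plus strand: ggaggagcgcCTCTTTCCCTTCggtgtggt
RPL36AL, chr14:49620607-49620636, minus strand: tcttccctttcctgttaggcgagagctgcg
EEF1A1, chr6:73521013-73521042, minus strand: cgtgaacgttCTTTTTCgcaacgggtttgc
RPLP0, RPL39, RPLP1 and RPL10, with shifts of -0.36, -0.31, -0.30 and -0.27, carry runs of 9 to 19 pyrimidines, while RPL36AL, at -0.030, does not meet the definition. Its annotated start lies inside a stretch of C and T that begins before the start and ends too soon after it. This contrast did not extend to the family. The median shift was -0.17 for the 47 genes with the start and -0.18 for the 17 without, which ran from -0.36 to -0.030. The 788 other tested genes with such a start had a median of -0.049 with 471 below 0 (59.8%, against 53.4% of all genes), and -0.0034 when libraries under 5000000 counts were left out. EEF1A1, whose start carries a run of 7, measured 7240, 7774 and 8563 CPM in unstimulated input and 6755, 7652 and 8558 CPM with IL-13. On polysomes it measured 1505, 2126 and 5551 CPM and then 1608, 2083 and 2984 CPM. Its treatments overlapped in both fractions, and its shift was -0.22 ± 0.22 and turned to 0.067 without replicate 1.

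The rest of the translation machinery was mixed. Of all genes 53.4% lay below 0, and in the highest quintile by level 64.7% did, with a median of -0.052. Of 48 initiation, elongation and release factor genes 29 lay below 0 (60.4%), with a median of -0.065. That median was 0.0015 without replicate 2 and 0.0061 without polysome_unstim_control replicate 1. EIF3L, a subunit of initiation factor eIF3, had -1.05 ± 0.47 (unadjusted p = 0.0325, not called by edgeR after adjustment), and EIF4G3, a scaffold of the cap-binding complex, 0.44 ± 0.28. EIF3L on polysomes measured 4.99, 39.9 and 78.3 CPM without IL-13 and 4.56, 13.5 and 30.2 CPM with it, and the groups overlapped. Of 20 cytosolic tRNA synthetase genes 18 lay below 0 with a median of -0.16, which was -0.26 in the control and -0.041 in the knockdown line. The synthetase median turned to 0.029 without polysome_unstim_control replicate 1, the unstimulated control polysome library numbered 1. Of 78 mitochondrial ribosomal protein genes 52 lay below 0 (66.7%), with a median of -0.058, which was 0.041 without replicate 5.

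Mitochondrially encoded mRNAs, which are translated by mitochondrial ribosomes and not by cytosolic polysomes, served as RNAs that should not follow cytosolic loading. Their loading was low in both treatments, with medians of -3.11 without and -3.23 with IL-13, and 12 of the 13 were called lower without it (31.4% of all genes were). The median shift was 0.036 (-0.23 without replicate 4), with 5 of 13 below 0, and the 2 lines differed in direction, with 10 of 13 below 0 in control and 1 of 13 in knockdown. MT-CO1, a subunit of cytochrome oxidase, had -0.013 ± 0.40. Nuclear-encoded respiratory chain genes had 44 of 51 below 0 (53.4% of all genes were) and a median of -0.098. That median was 0.015 without replicate 5. The nuclear long noncoding RNAs MALAT1 and NEAT1 were depleted from polysomes in both treatments (-1.75 and -1.87 for MALAT1, -2.27 and -2.11 for NEAT1), with shifts of -0.12 ± 0.51 and 0.16 ± 0.38.

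Interferon-stimulated genes, antiviral effectors induced through an interferon receptor that shares JAK1 and TYK2 with the IL-13 receptor, lay mostly below 0. Of 41 listed genes 37 were tested and 30 lay below 0 (53.4% of all genes did), with a median of -0.18, or -0.16 in control and -0.14 in knockdown. Over 56 settings this median ran from -0.23 to -0.11. No member had an unadjusted p under 0.05. STAT2, a transcription factor of interferon signalling, had -0.60 ± 0.33 (interval from -1.28 to 0.073), ISG15, a ubiquitin-like modifier, -0.29 ± 0.21, and IFITM3, a restriction factor, -0.23 ± 0.18. IFIT3, an RNA-binding antiviral protein, had 0.13 ± 0.36. Relative to all genes the list's pairs measured -0.38, -0.095 and 0.23 without IL-13 and -0.61, -0.27 and 0.24 with it, which overlap.

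**Figure D5:**
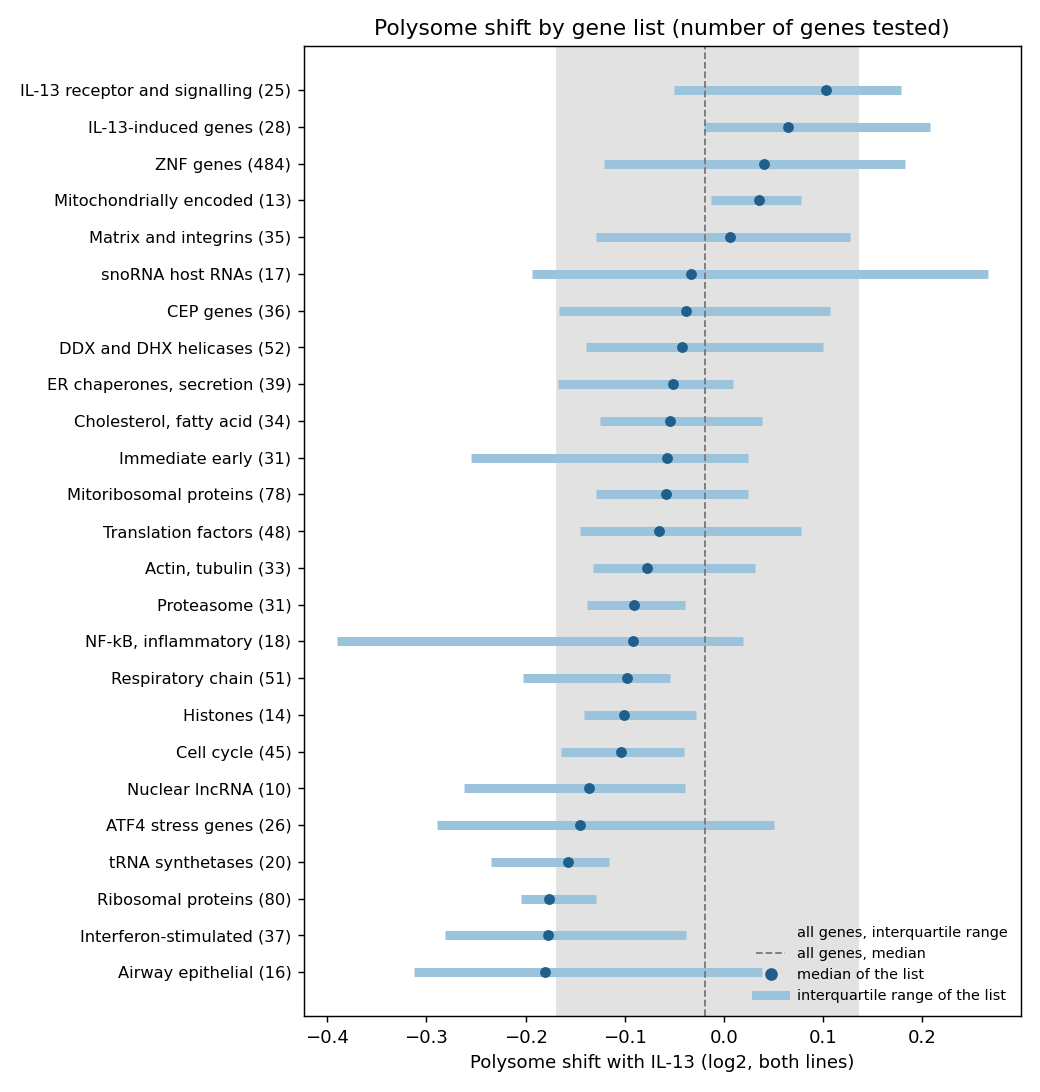
Median (blue point) and interquartile range (light bar) of the log2 shift with IL-13 for 25 gene lists, with the number of genes tested; the grey band and dashed line are the interquartile range and the median (-0.019) of all 16735 genes. List medians lie between -0.18 and 0.10, and the ribosomal protein bar is narrow and wholly below 0.

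The growth and stress lists had medians below 0 and no call, but leaving out libraries turned the sign of all but the proteasome list. Of 45 cell cycle genes 38 lay below 0 (median -0.10), and of 31 proteasome genes 26 (-0.091). Of 39 endoplasmic reticulum and secretion genes 26 lay below 0 (-0.051), and of 34 cholesterol and fatty acid synthesis genes 24 (-0.054). Of all genes 53.4% lay below 0, and in the highest quintile by level 64.7% did, with a median of -0.052. The secretion list, with 66.7% below 0, was close to that quintile. The proteasome median stayed between -0.15 and -0.035 when 1 library or 1 replicate number was left out. The cell cycle median was 0.028 without replicate 2. Without replicate 4 the secretion median was 0.15 and the cholesterol and fatty acid median 0.17. ATF4, the translationally controlled transcription factor of the integrated stress response, measured 228.5, 280 and 489 CPM in unstimulated input and 225.5, 282 and 322 CPM with IL-13. On polysomes it measured 72.1, 105 and 173 CPM and then 83.6, 98.7 and 150 CPM. The groups overlapped, and its shift was -0.0070 ± 0.18, with an interval from -0.38 to 0.37. Of 26 genes of its programme 18 lay below 0 (median -0.15), with DDIT4, an inhibitor of mTOR signalling, at 0.17 ± 0.32. Their median was 0.037 without replicate 4, -0.43 without input_unstim_control replicate 1 and 0.19 without polysome_unstim_control replicate 1, so no direction is given for this list.

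Most list directions depended on single libraries or replicate numbers. Of 29 lists 23 had a median of the other sign in at least 1 of 45 settings that left out 1 library or 1 replicate number. The 6 that kept their sign, all below 0, were the ribosomal protein, proteasome, interferon-stimulated, actin and tubulin, airway epithelial and endothelial lists, the last with 3 genes tested. The widest swings came from the unstimulated control libraries numbered 1. The 31 immediate early genes had a median of -0.057 and the 18 tested NF-kB and inflammatory genes one of -0.091. Without the unstimulated control input library numbered 1 the medians were -0.65 and -0.83, and without the polysome library of the same number they were 0.53 and 0.84. DUSP5, a phosphatase induced by growth signals, reached 461 CPM in input and 637 CPM on polysomes as the highest unstimulated values, against medians of 27.0 and 35.6 CPM. No direction is given for these 2 lists.

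Polysome loading itself depended on coding length, and the shift much less. In quintiles of the 13441 genes with a coding length, the median loading without IL-13 was 0.082, 0.60, 0.20, -0.34 and -1.27 from the shortest (11 to 251 codons) to the longest (840 to 8923). The median shift was -0.043, -0.035, -0.047, -0.018 and 0.036. Zinc finger genes named ZNF had 199 of 484 below 0 (53.4% of all genes were) and a median of 0.040 (-0.0064 without replicate 1). The median was 0.067 in control and -0.0017 in knockdown. Genes chosen as the least loaded quintile in one line had median shifts of 0.018 and 0.025 in the other, and the most loaded quintile -0.035 and -0.036, beside -0.023 and -0.0095 for all genes.

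The largest single shifts by p-value among well expressed genes are given as values, since none passed the adjustment. CHD4, a chromatin remodelling helicase, measured 149, 174 and 188 CPM in unstimulated input and 92.1, 152 and 172 CPM with IL-13. On polysomes it measured 8.39, 17.2 and 20.1 CPM and then 10.4, 19.2 and 29.9 CPM. Both fractions overlapped, and the polysome over input ratios did too, at -4.22, -3.31 and -3.04 against -3.82, -2.93 and -2.04. Its shift of 0.65 ± 0.23 (SE; unadjusted p = 0.00766, edgeR adjusted p = 1) was 0.68 in control and 0.63 in knockdown. HNRNPA2B1 and DDX5, RNA-processing proteins, had 1.13 ± 0.53 and 0.67 ± 0.33. UTP6, a ribosome biogenesis factor, had 0.90 ± 0.39, the zinc finger gene ZNF707 0.77 ± 0.29, and PSMG1, a proteasome assembly chaperone, 0.42 ± 0.20. NAA30, an amino-terminal acetyltransferase, had 0.52 ± 0.24 and the noncoding RNA CYTOR 0.55 ± 0.25.

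In the other direction C1orf74 had -0.69 ± 0.26 (unadjusted p = 0.0134, edgeR adjusted p = 1), with ratios of 0.022, 1.55 and 1.88 without IL-13 and -0.36, 0.83 and 1.53 with it. DGKA, a diacylglycerol kinase, had -0.82 ± 0.35, and DHX35, a helicase, -0.52 ± 0.23. ATG2A, a lipid transfer protein of autophagy, had -1.05 ± 0.53. STARD3, a cholesterol-binding protein, had -0.62 ± 0.30, IMPA2, an inositol phosphatase, -0.48 ± 0.23, and PTPMT1, a mitochondrial phosphatase, -0.35 ± 0.17. For each of these 7 genes the ratios of the treatments overlapped.

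TNS1, which links integrins to actin, was chosen after its values were seen. On control polysomes it measured 0, 1.73 and 3.34 CPM (lowest, median and highest of 5) without IL-13 and was listed at 0 in all 5 libraries with it. On knockdown polysomes it measured 0, 5.11 and 6.17 CPM without and 0.965, 4.05 and 4.55 CPM with IL-13. The knockdown treatments overlapped, and the difference of the shift between the lines was not called by edgeR. The fitted shift was -8.13 ± 1.51 in control (edgeR adjusted p = 0.0894) and 0.34 ± 0.83 in knockdown. The control value rests on libraries at 0 and depends on the small count the model adds. Averaged over the lines the fitted shift was -3.89 ± 0.91 (unadjusted p = 0.000145, edgeR adjusted p = 1), a value that neither line had. DESeq2's Wald test called TNS1 for the averaged shift, and DHX29, an initiation helicase that was at 0 in all 5 unstimulated control polysome libraries, as another of its 13 calls.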

How the data were processed

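Input and polysome RNA of BEAS-2B cells was sequenced in 40 libraries, 8 groups of 5. The deposited table holds 1 estimated count per gene and library (per the file headers), which has decimals and is unscaled. The deposited TPM values, per the file headers normalized by the authors, entered an alternative with a transcript length offset. Trimmomatic, Salmon, MultiQC and DESeq2 are named in the submitters' processing notes, without versions, and the genome build and annotation are not given in the sources used here.

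The design had assumed counts, and the estimated counts were rounded to whole numbers. filterByExpr kept 16735 of 62263 genes, with 99.91% of counts or more retained per library. edgeR 4.0.16 (R 4.3.3) fitted 1 mean per group by quasi-likelihood with TMM factors over all 40 libraries, which gave 32 residual degrees of freedom. The shift was the interaction of fraction and treatment, averaged over the lines with equal weight. Two-sided p-values were adjusted across the genes tested (Benjamini-Hochberg), and calls required an adjusted value under 0.05. Each standard error was the size of the log2 value divided by the square root of its F statistic. Intervals are 95% intervals from these errors with 32 degrees of freedom. Near 0 counts such errors are not dependable, with 0.168 for SERPINB4 (mean 0.332 CPM) and 10800 for CEP350. CPM used the TMM-scaled library sizes. Ratios per pair were log2(polysome CPM + 1) minus log2(input CPM + 1) for libraries with the same line, treatment and number, as a description only. Gene lists are described by counts and medians, with no set test. Coding lengths came from GENCODE, joined by unversioned gene ID, and symbols from a table of gene names that matched 62246 of the IDs.

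Named genes were those called for the shift, the 8 of smallest p in each direction with a mean of at least 10 CPM, up to 12 called for IL-13 in both fractions, the highest and lowest of each list, and 8 fixed genes. Of these, 3 genes are not reported here, but they stayed in the fits, the counts over all genes and the lists. The other genes given with values are list members or genes called for IL-13, and were not chosen by this rule. The members, the lists and this rule were chosen with earlier results of these data known. Floors of 3 counts cover counting error only. Alternatives included DESeq2 1.42.0, voom from limma 3.58.1, other filters and normalizations, replicate blocks, a transcript length offset and leaving out libraries. The TOP start class, the summed CPM of a list, and leaving out replicate 5 together with libraries under 5000000 counts were added after seeing the data. The procedure was tested on simulated data, and no pair of replicates held identical counts.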

Additional observations from a re-analysis of the deposited data

Results flagged for a closer look

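The log2 polysome over input ratio, each as CPM + 1, was examined for every named gene and list in the 10 numbered pairs of each treatment. The matching by number is not given by the labels as a shared culture, and the values depend on it. In 22 of 224 such sets the highest or lowest pair stood apart from the other 9 by a wide gap, where chance gives about 11. Pairs whose polysome library held fewer than 5000000 counts, 3 in number, gave 13 of the 22, so low depth moved with these values, and its part in them was not tested.

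In the IL-13 knockdown pair numbered 5, one of these shallow pairs, DGKA stood at -4.97 (nearest other -2.67), HNRNPA2B1 at -3.64 (-1.02), ZFP36 at -4.57 (-1.36), CEBPG at -2.89 (-1.23), PSMD1 at -6.72 (-2.76) and PSMG1 at 0.19 (1.04). In the unstimulated knockdown pair numbered 5, also shallow, NFKB2 stood at -3.02 (-1.62), NFKB1 at -4.92 (-2.44), STAT2 at -4.96 (-3.04) and IGF2BP3 at -0.14 (-1.15). In the same pair the nuclear noncoding RNA list stood at 0.13 relative to all genes (-0.64). In the unstimulated knockdown pair numbered 1, the remaining shallow pair, HNRNPA2B1 stood at -5.51 (-2.16) and CYTOR at -1.78 (-0.70).

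The other values came from deeper pairs. In the IL-13 control pair numbered 1, NFKB1 stood at -4.92 (-2.26), CEP72 at -1.97 (-1.19), NPPB at 2.30 (0.76) and the IL-13 receptor and signalling list at -0.89 (-0.33). In the IL-13 control pair numbered 2, IMPA2 stood at 0.62 (-0.27) and the actin and tubulin list at 0.64 (0.18). Single values were those of COX6C in unstimulated control pair 2, at 1.74 (0.36), of IL4R in unstimulated control pair 4, at 1.08 (0.34), and of the IGF2BP target list in IL-13 knockdown pair 3, at -0.45 (-0.046).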

How the results depend on the processing

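The reported count of 0 genes called for the shift held in 55 of 56 alternative settings, with 13 calls by the DESeq2 Wald test as the exception. At an unadjusted p under 0.05 there were 1151 genes with no filter, 389 in libraries of at least 5000000 counts, 718 without replicate 2 and 751 with limma voom. The difference between the lines had 12 calls by DESeq2. Calls for IL-13 in input were 51 by DESeq2 and 106 by limma voom, and 17 to 23 when a replicate number was left out. Calls in polysome RNA were 82 by DESeq2, 22 by limma voom and 13 among genes of at least 10 CPM, and 22 to 40 when a replicate number was left out, with 22 without replicate 4. The cause of these differences was not tested, except that fewer genes were tested at 10 CPM.

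With the replicate number as replicate block 0 genes were called for the shift (257 unadjusted), 26 for IL-13 in input and 31 in polysome. With the culture as replicate block, which pairs input and polysome libraries of the same number, 0 were called (160 unadjusted). The deviations of such pairs from their group means had correlations from -0.49 to 0.62 (median 0.015), 9 of 20 over 0.1. Of the polysome libraries 7 of 20 correlated best with their own input, so the main fit did not take the numbers to pair the libraries. The culture block and limma voom, which also blocked on the culture, were alternatives only.

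Over settings that left out libraries, list medians that moved by more than their spread ran from -0.65 to 0.53 for immediate early genes, from -0.83 to 0.84 for NF-kB genes, from -0.16 to 0.10 for IGF2BP targets and from -1.0 to -0.16 for endothelial markers (3 genes tested). The IL-13-induced list was at -0.15 with limma voom, and the TOP starts outside ribosomal proteins at -0.0034 in libraries of at least 5000000 counts.

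An uncalled shift was counted as reversed where it changed sign and moved by more than its standard error. Of 83 named genes 44 kept their sign in every setting, 39 changed it in at least 1, and 0 were called in any. Each of the following ranges is over settings that left out 1 library or 1 replicate number. They were -0.28 to 0.18 for STAT6, -0.38 to 0.067 for EEF1A1, -0.38 to 0.27 for IL4R, -0.24 to 0.22 for LIMA1 and -2.24 to 0.047 for CCL26. They were -0.54 to 0.50 for CD14, -0.16 to 0.36 for SPCS2, -0.70 to 0.76 for LAMA5, -0.070 to 0.50 for CEP250 and -0.27 to 0.21 for RPL36AL. They were -0.88 to 0.16 for NFKB2, -0.82 to 1.11 for DUSP5, -0.82 to 1.14 for TGM2 and -0.59 to 0.41 for MALAT1. Without replicate 5 and with libraries under 5000000 counts left out together, RPL36AL was at 0.20 and PPFIBP2 at -0.34, and without those libraries alone PABPC1 was at 0.089 and MALAT1 at 0.40. With limma voom IGF2BP3 was at 0.24, CEBPG at 0.014, IARS1 at 0.26 and TUG1 at 0.31. The 3 libraries under 5000000 counts were polysome RNA of the knockdown line, and the lowest median depth was in unstimulated control polysome RNA (11130254).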
